A study of Capra hircus with 21 samples.

Results

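Goat pluripotency transcription factors were followed from the egg to the blastocyst. The set holds 6 genes, POU5F1, NANOG, SOX2, SOX15, PRDM14 and SALL4, and its members were the rows with those symbols among 19040 genes of the deposited table, each of which has exactly 1 row. RNA had been sequenced from goat (Capra hircus) oocytes that matured in the animal and from embryos that developed in the animal to 6 later stages (2-cell, 4-cell, 8-cell, 16-cell, morula, blastocyst), with 3 libraries per stage and 21 in all. All groups thus share their origin in the living animal, the labels name no treatment of the donors, and the stage is the only factor they give. The labels give no breed or age, no number of oocytes or embryos per library, and no word on whether the 3 libraries came from different animals. The p-values therefore reflect the spread of these libraries alone, and that spread may be technical.

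The inner cell mass of a blastocyst can form every tissue of the body, and a small circuit of DNA-binding proteins holds its cells in that state. POU5F1 (also called OCT4) and SOX2 bind DNA side by side at shared sites, NANOG joins them at many of these, and each of the 3 acts on the genes of the others. SALL4 is a zinc-finger partner of POU5F1 that recruits a histone deacetylase complex, PRDM14 represses differentiation and DNA methyltransferase genes in germ cells and naive pluripotent cells, and SOX15 is a SOX protein whose DNA-binding domain resembles that of SOX2. In cattle and other ruminants the embryonic genome is known to become broadly active around the 8-cell to 16-cell stage, and the RNA present before then comes largely from the oocyte.

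Levels are in RPKM, read numbers corrected for gene length and library size, and ratios of stage means are in RPM, the same numbers corrected for library size alone. The deposited RPKM values carry an offset of 0.01, so 0.01 means 0 reads, and their length term is the full genomic extent of each gene, introns included. PRDM14, which spans 21123 bp, and SALL4, which spans 18028 bp, therefore appear lower against SOX2 (963 bp) and SOX15 (1361 bp) than they would per length of mRNA, and levels were compared between stages of a gene rather than between genes. As the table gives them, in a genome build that is not given in the sources used here, POU5F1 lies on chromosome 23 from 22083403 to 22087892, NANOG on chromosome 5 from 99870680 to 99875283, SOX2 on chromosome 1 from 85009956 to 85010919, SOX15 on chromosome 19 from 27058791 to 27060152, PRDM14 on chromosome 14 from 48317841 to 48338964 and SALL4 on chromosome 13 from 79083051 to 79101079. All 6 are protein-coding genes, and PRDM14 alone lies on the plus strand. RefSeq lists 2 loci with the symbol NANOG and 1 for each of the others, so reads of NANOG may be shared with a copy.

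The libraries held 8.47 M to 26.7 M reads in the listed genes. Stage labels were checked on 6 oocyte transcripts (GDF9, BMP15, MOS, ZP4, H1FOO and BTG4), whose summed level was 433 to 917 RPKM in oocytes, 530 to 556 RPKM at the 8-cell stage and at most 0.287 RPKM in blastocysts. Library C stood apart from its stage mates at 2 stages. The sum was 270 RPKM in 16-cell C against 83.6 and 74.8 RPKM in 16-cell A and B, and 106 RPKM in morula C against 3.12 and 6.97 RPKM in morula A and B. Over all genes tested, morula C also correlated more closely with the 16-cell libraries (mean r = 0.92) than with the other morulae (0.88). A label notes that the reverse reads of morula A were corrupt and left out of the submission, and whether its deposited values used both reads is not given in the sources used here. Morula A was the highest morula for POU5F1 and SOX2 and the lowest for NANOG and PRDM14. For POU5F1, SOX15, PRDM14 and SALL4, several results that 16-cell C, morula C or morula A moved by much are given with and without them. NANOG and SOX2 were in no fit that left out a library. How far their results depend on these libraries was not tested.

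SOX15, PRDM14 and SALL4 rose from 8-cell to 16-cell embryos, and SOX15 fell again from the morula to the blastocyst. SOX15, PRDM14 and NANOG had their highest mean at the 16-cell stage, SOX2 and SALL4 in the morula, and POU5F1 in the blastocyst. For each of the 6 the highest stage overlapped the next in order, so none of these peaks is separated from its neighbour. SALL4 was the only member that read at least 1 RPKM in all 21 libraries. NANOG reached 1 RPKM in no library and SOX2 in 2, so 4 of the 6 members passed the filter for testing (1 RPKM in at least 3 libraries).

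**Figure D1:**
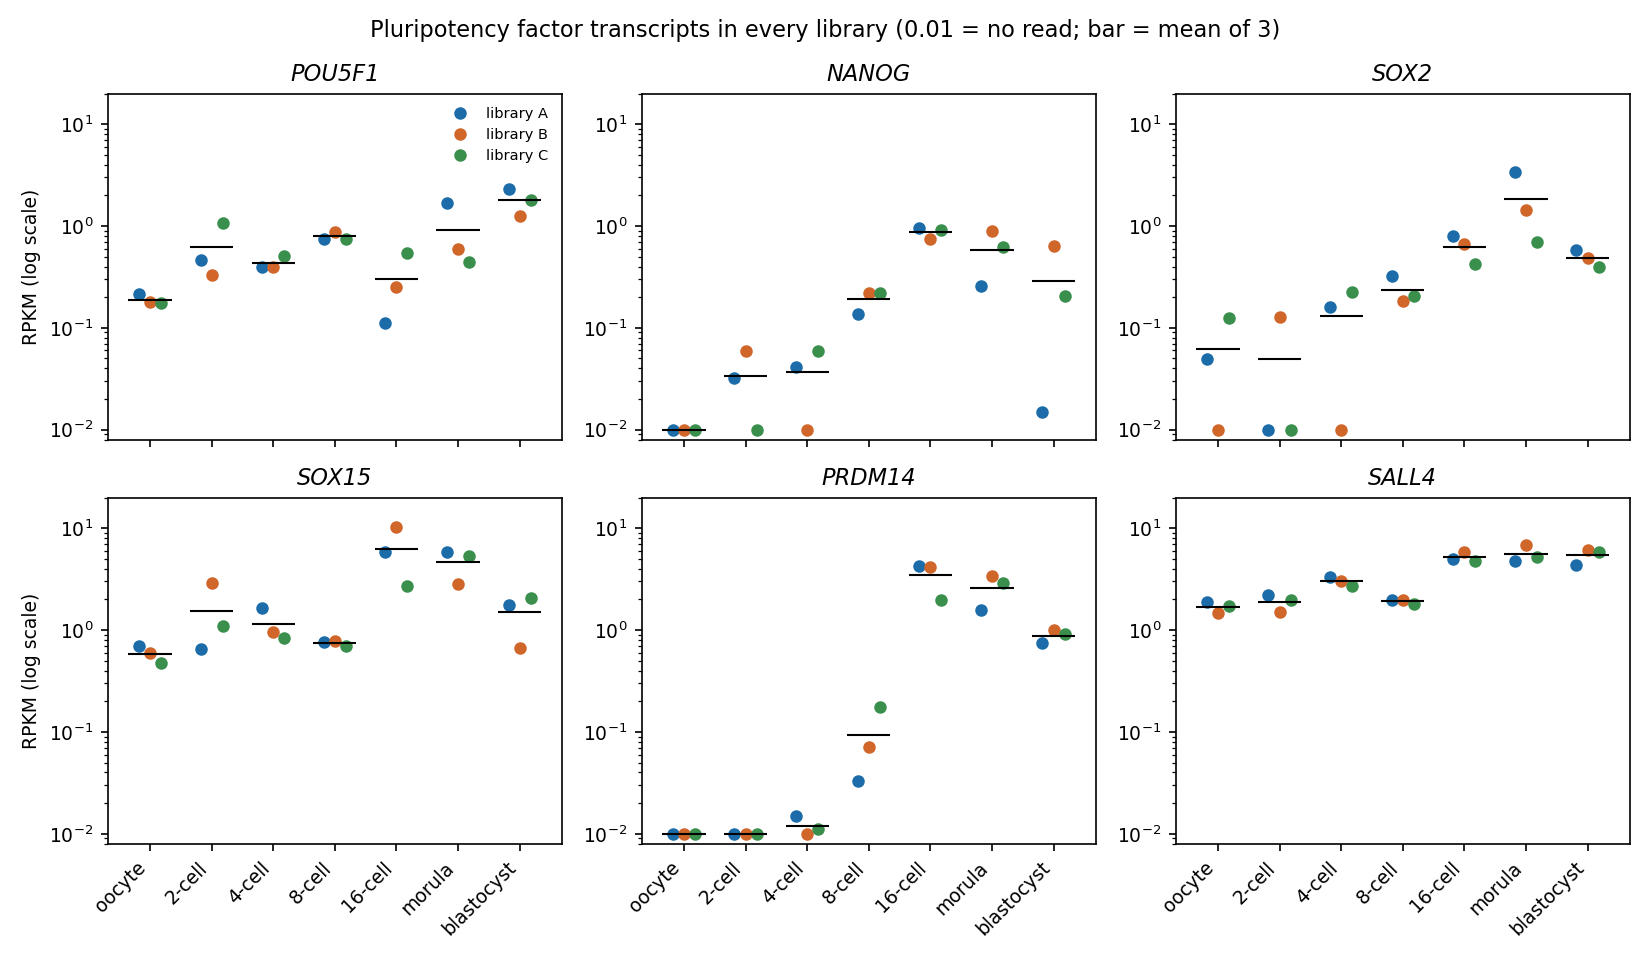
Level of each factor in every library (RPKM as deposited, log scale on the vertical axis) at 7 stages, with 1 point per library and a bar at the mean of 3. PRDM14 sits at the offset of 0.01 in oocytes and 2-cell embryos and between 1.57 and 4.27 RPKM in 16-cell embryos and morulae, while SALL4 stays between 1.46 and 6.88 RPKM throughout.

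The tests used limma on log2(RPKM + 1) in a single model of all 21 libraries, with Benjamini-Hochberg adjustment over 4253 genes. A member was called, and is said to have risen or fallen, where the adjusted p was below 0.05 and the log2 difference was at least 1 in size. From the 8-cell to the 16-cell stage, 3 of the 4 tested members were called higher and none lower, while 19.4% of all genes tested were called higher and 35.3% in either direction. PRDM14 reached 1 RPKM only in 16-cell embryos and morulae and so passed the filter through the stages where it was high, so its place in this count is not independent of the filter. The fit of all 19040 genes without a filter called the same 3 members higher, as it did 4.16% of its genes. From the morula to the blastocyst, 1 was called lower (25.3% of all genes lower, 29.2% in either direction), and from the 8-cell stage to the blastocyst 1 was called higher (19.4% higher, 56.9% in either direction). Across all stages the moderated F test passed all 4 tested members, a rule that 93.8% of the genes tested also met. No member was called from oocyte to 2-cell (4.77% of all genes), 2-cell to 4-cell (0%), 4-cell to 8-cell (0.682%), 16-cell to morula (16.1%) or oocyte to 8-cell (11.5%). At an unadjusted p below 0.05, limma gave 0 members in the first of these 5 comparisons and 1 in each of the others. Of the 4253 genes tested, 1099, 161, 603, 1553 and 1473 passed that threshold in the 5 comparisons, in the same order.

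**Figure D2:**
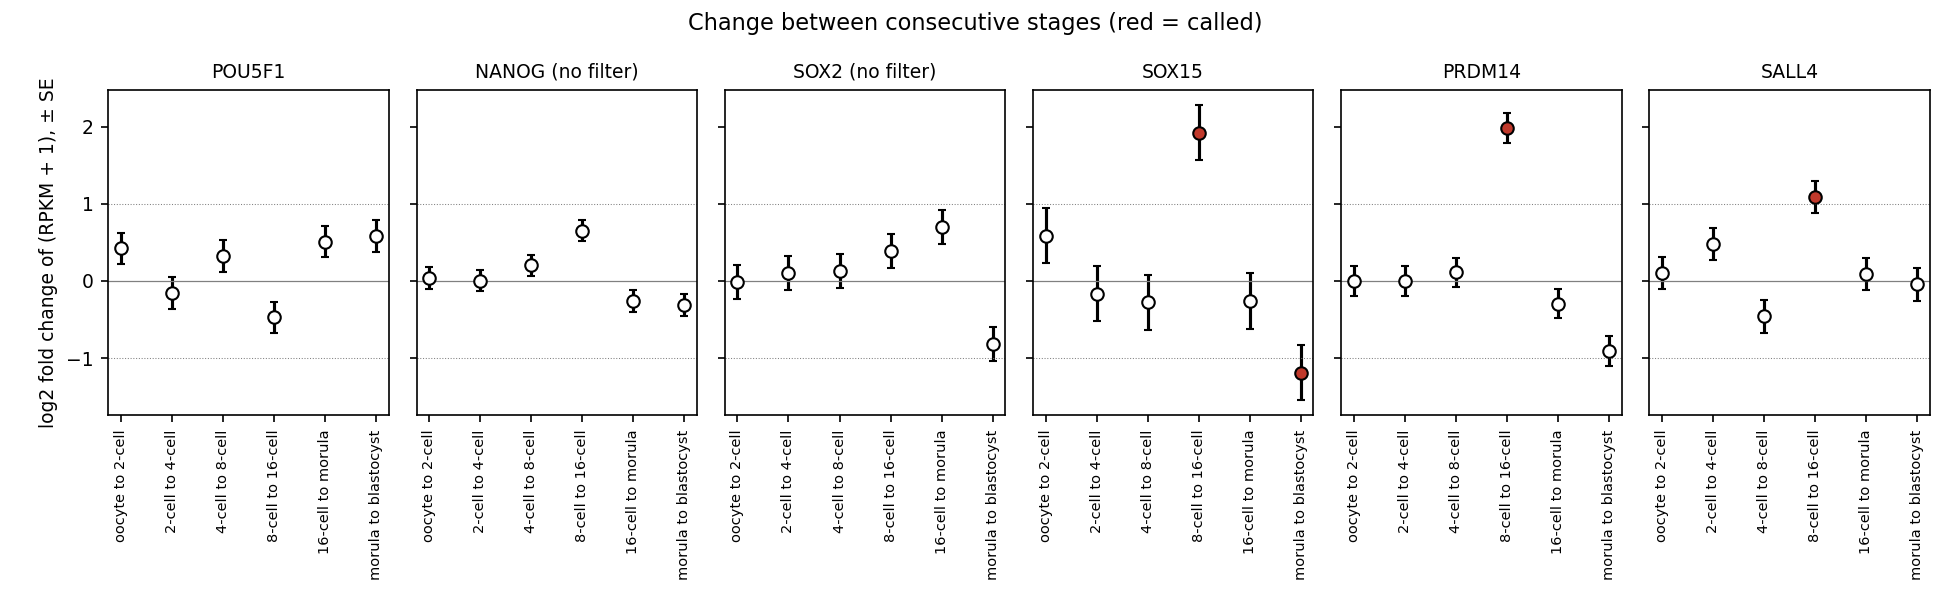
Difference in log2(RPKM + 1) of each factor at the 6 consecutive stage comparisons, with limma's standard error as bars, called differences in red, dotted lines at the size a call requires, and NANOG and SOX2 from the fit without a filter. The 3 called rises, 1.98 for PRDM14, 1.92 for SOX15 and 1.09 for SALL4, are all from 8-cell to 16-cell, and POU5F1 lies at -0.47 there.

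PRDM14 showed the sharpest onset. No read was found in the 3 oocyte libraries or the 3 libraries of 2-cell embryos, where a count of 0 allows up to 3 reads, and the 4-cell libraries A, B and C held 5, 0 and 1 reads. At the 8-cell stage it read 0.0328, 0.0711 and 0.177 RPKM (27 to 188 reads), and at the 16-cell stage 4.27, 4.16 and 1.96 RPKM (1772 to 4602 reads). The 2 stages do not overlap, and 16-cell C, the library with more oocyte RNA, was the lowest of its stage. The rise was 1.98 ± 0.19 on the log2(RPKM + 1) scale (SE, n = 3 libraries per stage, limma adjusted p = 1.95e-07) and 2.26 without 16-cell C and morula C. That scale compresses values below 1 RPKM: the mean RPM was 41.4-fold higher at the 16-cell stage.

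An increase of PRDM14 was already visible a stage earlier on the scale of reads. The 8-cell libraries held 277 reads together against 6 in the 4-cell libraries, a 41.9-fold higher mean RPM, and the ranges of the 2 stages do not overlap. Against oocytes the 8-cell mean was at least 30.0-fold higher, taking 3 reads per oocyte library as the floor. The test on log2(RPKM + 1) gave 0.11 for the step from 4-cell to 8-cell (adjusted p = 0.902). On log2 of RPM plus 0.1 with every gene kept, a setting added after the values were seen, it gave 3.40 (limma adjusted p = 0.00709), where 0.158% of 19040 genes were called higher. PRDM14 thus passed the call rule at this step under that setting only.

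After the 16-cell stage PRDM14 was lower, at 1.57, 3.38 and 2.88 RPKM in the morulae and 0.743, 0.998 and 0.910 RPKM in the blastocysts. Morulae and 16-cell embryos overlap, with a difference of -0.29 (limma adjusted p = 0.283) that was -0.63 (adjusted p = 0.00989) without 16-cell C and morula C. Every morula lies above every blastocyst. The morula to blastocyst difference was -0.91 ± 0.19 (limma adjusted p = 0.000895), short of the size required for a call, and the mean RPM was 2.98-fold higher in the morula. Without morula A it was -1.13 (adjusted p = 0.00011) and met the rule. It was -0.19 (adjusted p = 0.573) with quantile normalization and -0.040 (adjusted p = 0.931) with median-ratio scaling. The blastocysts still stood above the 8-cell embryos, with no overlap and a log2 difference of 0.78 (adjusted p = 0.00114).

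SOX15 was present in every library. It read 0.693, 0.590 and 0.472 RPKM in oocytes and 0.758, 0.774 and 0.698 RPKM at the 8-cell stage, with 0.646, 2.87 and 1.09 RPKM in 2-cell and 1.63, 0.954 and 0.835 RPKM in 4-cell embryos between them. The high value of 2-cell B gave that stage a coefficient of variation of 76.7%, against 5.45% at the 8-cell stage. No comparison among these early stages was called.

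SOX15 then reached 5.79, 10.3 and 2.73 RPKM in 16-cell A, B and C. All 3 lie above all 8-cell libraries, and the rise was 1.92 ± 0.36 (SE, limma adjusted p = 0.000188), or 8.54-fold in mean RPM. Without 16-cell C and morula C it was 2.33 (limma adjusted p = 2.69e-05). The morulae, at 5.88, 2.83 and 5.33 RPKM, overlapped the 16-cell embryos. The difference from 16-cell to morula was -0.26 (limma adjusted p = 0.634) and -0.77 (adjusted p = 0.135) without 16-cell C and morula C.

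In blastocysts SOX15 read 1.76, 0.668 and 2.05 RPKM, below every morula, and fell by 1.19 ± 0.36 (SE, limma adjusted p = 0.0110). The mean RPM was 3.15-fold higher in the morula. This call rests on blastocyst B, the lowest library: without it the difference was -0.92 and the adjusted p 0.0721. The median gene also moved by -0.48 at this step, so that SOX15 lay -0.71 from the median gene. The call was lost with quantile normalization (-0.40, adjusted p = 0.381) and with scaling on the median ratio of genes (-0.24, adjusted p = 0.635).

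SALL4 was present from the oocyte on, and its lowest stage mean was 29.7% of its highest. It read 1.88, 1.46 and 1.71 RPKM in oocytes, 2.19, 1.51 and 1.97 RPKM in 2-cell, 3.30, 3.06 and 2.68 RPKM in 4-cell and 1.97, 1.97 and 1.80 RPKM in 8-cell embryos. The 4-cell libraries lie above all of those 3 stages. Neither step around them was called: the differences were 0.48 (adjusted p = 1.0) from 2-cell to 4-cell and -0.46 (adjusted p = 0.332) from 4-cell to 8-cell.

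SALL4 rose to 4.97, 5.79 and 4.81 RPKM at the 16-cell stage, by 1.09 ± 0.21 (SE, limma adjusted p = 0.000255), with no overlap with the 8-cell libraries and a 2.73-fold higher mean RPM. Morulae at 4.78, 6.88 and 5.25 RPKM and blastocysts at 4.33, 6.17 and 5.79 RPKM covered the same range as 16-cell embryos. From the 8-cell stage to the blastocyst SALL4 was higher by 1.13 ± 0.21 (limma adjusted p = 7.26e-05). From morula to blastocyst its difference was -0.045 (adjusted p = 0.873), and the sign of that value depends on the scaling: it was 0.86 with quantile normalization and 1.20 with median-ratio scaling, where the adjusted p was 0.00331 and 16.5% of all genes were called higher.

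**Figure D3:**
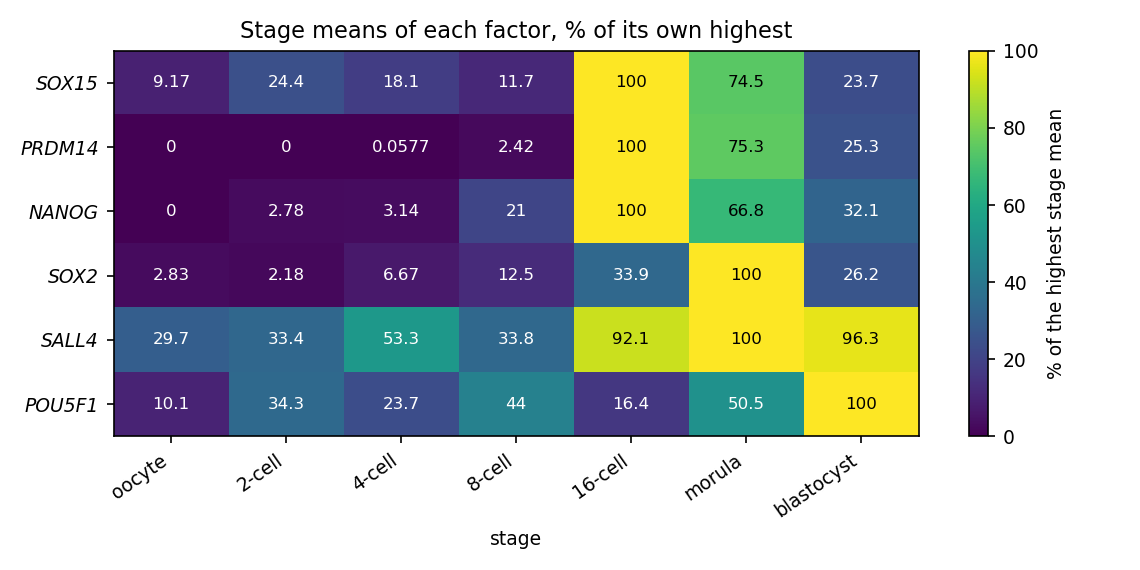
Stage mean of each factor as a percentage of its own highest stage mean, in RPM, with factors as rows and stages as columns. SALL4 stood at 29.7% of its highest mean in oocytes and at 92.1 to 100% from the 16-cell stage on, while PRDM14 stood at 2.42% at the 8-cell stage and POU5F1 at 16.4% at the 16-cell stage.

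NANOG, which stabilises the pluripotent state, had no read in any oocyte library. It read 0.0321, 0.0598 and 0.01 RPKM in 2-cell and 0.0414, 0.01 and 0.0598 RPKM in 4-cell embryos, at most 14 reads each. The 8-cell libraries, at 0.136, 0.218 and 0.221 RPKM (32 to 52 reads), lie above all earlier ones, at least 14.2-fold over oocytes in mean RPM. The 16-cell libraries, at 0.958, 0.753 and 0.910 RPKM (136 to 223 reads), lie above all 8-cell libraries by 4.75-fold. NANOG did not pass the filter, so these values carry no test in the main model. In the fit of all 19040 genes the step from 8-cell to 16-cell was 0.65 ± 0.14 (SE, limma adjusted p = 0.00234), below the size required for a call, which 4.16% of those genes met in the higher direction.

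On log2 of RPM plus 1, where 10384 genes passed the same filter and 15.4% were called higher, NANOG rose by 1.44 from 8-cell to 16-cell (limma adjusted p = 0.00143). Later stages were uneven. Morulae read 0.258, 0.887 and 0.616 RPKM, and blastocysts 0.0148, 0.638 and 0.207 RPKM. Blastocyst A held 1 read of NANOG and blastocyst B 165, and the range of the blastocysts overlaps both the morulae and the 8-cell embryos. The step from morula to blastocyst was -0.31 in the fit of all genes (limma adjusted p = 0.154). Of 16 NANOG values under 1000 reads and above 0, 11 were whole reads within 0.05 of a read, against 92.2% of values across all genes (those of 10 to 500 reads).

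SOX2, the partner of POU5F1 on DNA, was near the detection limit up to the 4-cell stage. Oocytes read 0.0494, 0.01 and 0.125 RPKM, 2-cell embryos 0.01, 0.129 and 0.01 RPKM and 4-cell embryos 0.160, 0.01 and 0.224 RPKM, at most 9 reads in any of these libraries. It read 0.325, 0.183 and 0.204 RPKM at the 8-cell and 0.801, 0.663 and 0.421 RPKM at the 16-cell stage, which do not overlap. The counts behind these are 8 to 17 and 17 to 39 reads, so differences in this range are poorly determined.

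Morulae held the highest SOX2 levels, at 3.36, 1.44 and 0.694 RPKM (33 to 181 reads), with the widest spread of the later stages (coefficient of variation 75.2%). Morula C, the library nearest to 16-cell embryos, was the lowest of them and overlaps that stage. Blastocysts read 0.583, 0.484 and 0.393 RPKM, below every morula. In the fit of all genes the difference from morula to blastocyst was -0.82 ± 0.22 (SE, limma adjusted p = 0.0163), below the size required for a call, which 5.06% of those genes met in the lower direction. The value of 3.36 RPKM is that of morula A, and no fit of SOX2 without that library was made. The morula mean and this difference may therefore rest on it. The span listed for SOX2, 963 bp, is a multiple of 3, which is what a coding sequence without untranslated regions would give, so reads from the rest of its mRNA may lie outside the listed span. The span of PRDM14, 21123 bp with introns, is also a multiple of 3, so divisibility alone cannot decide this.

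POU5F1 followed another course. It read 0.214, 0.179 and 0.174 RPKM in oocytes, 0.467, 0.327 and 1.07 RPKM in 2-cell, 0.395, 0.391 and 0.507 RPKM in 4-cell and 0.745, 0.880 and 0.748 RPKM in 8-cell embryos. The 8-cell libraries lie above all oocytes, 4.37-fold in mean RPM, with a log2(RPKM + 1) difference of 0.59 ± 0.21 (SE, limma adjusted p = 0.0440) that is short of the size required. 2-cell C stands apart from its stage mates.

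At the 16-cell stage, where SOX15, PRDM14 and SALL4 rose, POU5F1 read 0.112, 0.249 and 0.542 RPKM, below every 8-cell library and 2.68-fold lower in mean RPM. The difference was -0.47 ± 0.21 (SE, limma adjusted p = 0.0554). On log2 of RPM plus 1 it was -1.05 (adjusted p = 0.0250), and with a pseudocount of 0.1 on the RPKM scale it was -1.29 (adjusted p = 0.0195). Both met the call rule, which 30.7% of the genes tested on the RPM scale met in the lower direction. Without 16-cell C and morula C it was -0.60 (adjusted p = 0.0180) on the RPKM scale. 16-cell C held the highest POU5F1 level of its stage, so leaving it out could only lower the stage mean.

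Morulae read 1.67, 0.601 and 0.446 RPKM of POU5F1 and blastocysts 2.30, 1.27 and 1.79 RPKM. Morula A overlaps the blastocysts, and the other morulae lie below them. The step from 16-cell to morula was 0.51 (limma adjusted p = 0.0771) and 0.24 (adjusted p = 0.461) without morula A. Without 16-cell C and morula C this step was 0.81 (adjusted p = 0.0117), short of the size required. The step from morula to blastocyst was 0.59 ± 0.21 (SE, limma adjusted p = 0.0267), short of the size required, and 1.07 relative to the median gene. With median-ratio scaling it was 1.48 (adjusted p = 2.04e-05) and met the rule. Without 16-cell C and morula C the step from morula to blastocyst was 0.41 (adjusted p = 0.127). Without morula A it was 0.86 (adjusted p = 0.00134), short of the size required. In whole embryos a smaller share of cells that express a gene and less of its RNA per cell cannot be told apart, and the blastocyst holds an outer trophectoderm beside the inner cell mass.

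The POU5F1 values share their locus with another gene. TCF19, a gene for a nuclear protein of the cell cycle, lies on the plus strand from 22078916 to 22085070 and its listed span overlaps that of POU5F1 by 1667 bp. POU5F1 was a whole number of reads in only 3 of 21 libraries and TCF19 in 2 of the 17 with under 1000 reads, whereas SOX15 was whole in 21 of 21 and SOX2 in 17 of 17. The values of both genes therefore include fractions of a read. TCF19 averaged 0.673 RPKM at the 16-cell stage, 2.22 RPKM in morulae and 11.2 RPKM in blastocysts, and rose by 1.98 ± 0.23 from morula to blastocyst (SE, limma adjusted p = 1.88e-06). Its part in the POU5F1 values was not tested. An unnamed gene that also spans POU5F1 held 0 to 16 reads per library.

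**Figure D4:**
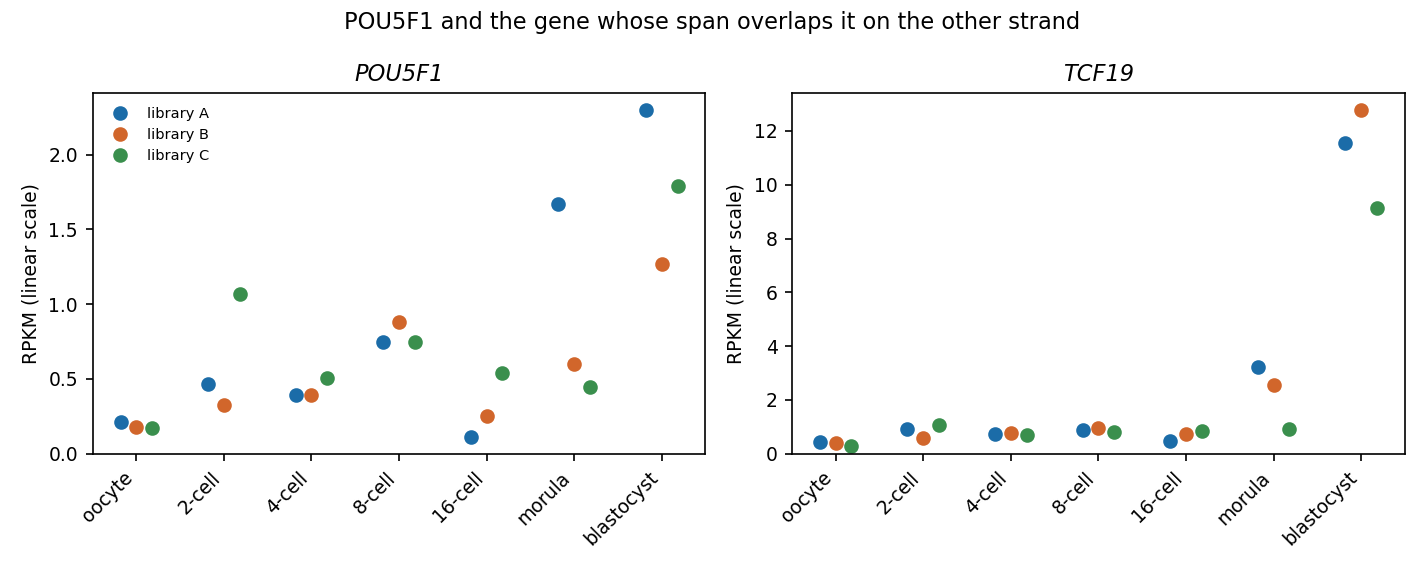
POU5F1 (left) and the overlapping gene TCF19 (right) in every library, in RPKM on linear axes of different range, with 1 point per library. Both are highest in the blastocyst, where TCF19 averaged 11.2 RPKM and POU5F1 1.79 RPKM, and POU5F1 was lower in every 16-cell library than in any 8-cell library.

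In order of their means, few neighbouring stages had libraries without overlap. With 3 libraries per stage, a lack of overlap is a description and not a test. The share of all genes without such overlap is not given here, so a separation is not read as particular to the members. For PRDM14 the morula lay above the blastocyst, the blastocyst above the 8-cell and the 8-cell above the 4-cell stage without overlap. For SALL4, 16-cell embryos lay above 4-cell embryos and these above 8-cell embryos. For SOX15 the 4-cell stage lay above the 8-cell stage and that barely above the oocyte. The lowest 8-cell library read 0.698 RPKM of SOX15 and the highest oocyte library 0.693 RPKM. Neither SOX15 difference was called. Limma gave -0.28 (adjusted p = 0.821) from 4-cell to 8-cell and 0.14 (adjusted p = 0.862) from oocyte to 8-cell. For NANOG the 8-cell lay above the 4-cell stage, and for SOX2 the blastocyst above the 8-cell stage. For POU5F1 no stage was separated from the next in order of its mean.

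Across the 21 libraries, PRDM14 and NANOG varied most closely together (Pearson r = 0.90 on log2(RPKM + 1)), followed by PRDM14 with SALL4 (0.85) and SOX15 with PRDM14 (0.84). POU5F1 had r between -0.085 and 0.38 with the other 5. These coefficients are descriptions, since the libraries share stages and depth. Among 1126 genes with a symbol and at least 5 RPKM in some stage, those nearest to PRDM14 were ARMT1, SFPQ and MED31 (r = 0.97 each) and those nearest to SOX15 were POLR1E (0.92), DNAJB9 and NUP50 (0.91 each). Among the nearest to SALL4 were RPS18, a ribosomal protein gene (0.93), and TPT1 (0.92), and the nearest to POU5F1 were ALAD and CYC1 (0.86 each) and the overlapping TCF19 (0.85).

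Other genes of the pluripotency network were taken from 5 lists of 135 genes in all, of which 111 were in the table and 24 were tested. Of 36 network partners, 26 were found and 11 tested. From the 8-cell to the 16-cell stage 8 of these 11 were called higher (KLF3, KLF4, KLF5, KLF17, MYC, MYCN, RIF1 and ZNF281) and none lower (19.4% and 15.9% of all genes tested). KLF3, KLF5, MYC and MYCN among them reached 1 RPKM in no library up to the 8-cell stage, so they passed the filter only through stages where they were high and the count is a description, not support. KLF17, a Kruppel-like factor of early embryos, rose from 1.57 ± 0.718 to 59.2 ± 32.1 RPKM (SD, n = 3) and KLF4, a reprogramming factor, from 1.49 ± 0.248 to 43.8 ± 18.1 RPKM. From morula to blastocyst 4 of the 11 were called lower, KLF3, KLF4, KLF17 and MYC, and KLF5 was called higher (25.3% and 3.93% of all genes). KLF17 fell from 28.9 ± 22.5 to 0.937 ± 1.16 RPKM (limma log2 difference -3.86, adjusted p = 4.38e-06), while KLF5, a Kruppel-like factor also found in trophectoderm, rose from 4.88 ± 3.83 to 18.9 ± 5.64 RPKM.

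Of 16 signals of the inner cell mass, 13 were found and 2 tested, and these moved in opposite ways. BMP4, a TGF-beta family ligand, rose from 0.846 ± 0.182 to 6.82 ± 1.84 RPKM (SD, n = 3) from 8-cell to 16-cell and fell from 6.16 ± 3.04 to 0.238 ± 0.104 RPKM from morula to blastocyst. Its stage means reached 1 RPKM only in 16-cell embryos and morulae, so these changes are descriptions, not support. GDF3, a Nodal-like ligand, fell from 3.97 ± 0.600 to 1.67 ± 2.07 RPKM in the first of these steps, with overlapping libraries, and rose from 0.215 ± 0.186 to 4.95 ± 4.11 RPKM in the second. FGF4, the ligand by which inner cells signal to their neighbours and a classic target of POU5F1 and SOX2, did not pass the filter and had its highest stage mean in the morula at 0.274 RPKM.

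Of 24 chromatin partners of SALL4 and PRDM14, 21 were found and 6 tested. HDAC2, a deacetylase of the complex that SALL4 recruits, rose from 0.526 ± 0.0571 to 7.17 ± 1.99 RPKM (SD, n = 3) from 8-cell to 16-cell and fell from 8.02 ± 3.74 to 1.20 ± 0.222 RPKM from morula to blastocyst. RBBP7, a histone-binding subunit of that complex, fell at both steps, from 35.4 ± 3.86 to 14.4 ± 2.51 RPKM and from 9.82 ± 5.34 to 1.99 ± 1.82 RPKM. UHRF1, a cofactor of maintenance DNA methylation, fell at the first step, from 2.04 ± 0.573 to 0.494 ± 0.394 RPKM, and EED, a Polycomb subunit, was called lower at the second. In all, 1 of the 6 tested rose and 2 fell at the first step, where 19.4% and 15.9% of all genes were called higher and lower, and 3 fell at the second, where 25.3% of all genes were called lower. Up to the 8-cell stage the means were at most 0.761 RPKM for HDAC2 and 0.825 RPKM for EED. From the 16-cell stage on, those of UHRF1 were at most 0.494 RPKM. These genes thus passed the filter largely through stages where they were high, so the counts are descriptions, not support.

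Of 45 relatives in the SOX, POU, SALL and PRDM families, 37 were found and only POU1F1, POU4F3 and PRDM8 passed the filter. None of these 3 was called in any of the 8 comparisons. Of 16 factors of the trophectoderm and primitive endoderm, 15 were found and 2 tested. TFAP2C rose from 0.0357 ± 0.0235 to 1.45 ± 0.484 RPKM (SD, n = 3) from 8-cell to 16-cell, where 19.4% of all genes were called higher. DAB2, an endocytic adaptor of primitive endoderm, rose from 0.547 ± 0.610 to 8.75 ± 1.36 RPKM from morula to blastocyst, where 3.93% were called higher. Stage means of TFAP2C up to the 8-cell stage were at most 0.0357 RPKM, and those of DAB2 before the blastocyst at most 0.547 RPKM. Both thus passed the filter through stages where they were high, so these rises are descriptions, not support. None of the 24 tested genes of the 5 lists was called between 16-cell and morula, where 16.1% of all genes were called.

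**Figure D5:**
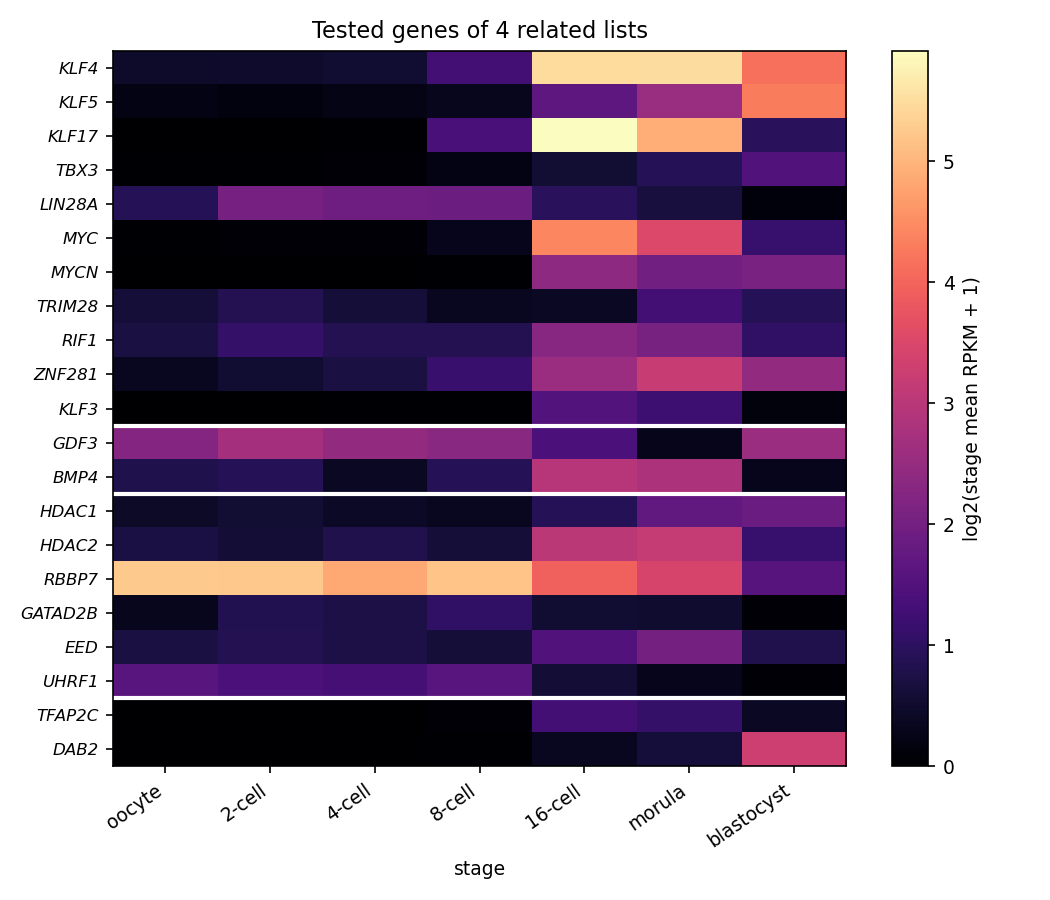
Stage means of the tested genes of 4 lists, as log2(stage mean RPKM + 1) by colour, with genes as rows, stages as columns and white lines between network partners, signals, chromatin partners and opposing lineage factors. KLF17 is brightest at the 16-cell stage, where its mean was 59.2 RPKM, and DAB2 in the blastocyst at 8.75 RPKM.

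The summed levels of markers of other cells that samples from a female tract could hold moved with the stage. The summed level of 8 cumulus and granulosa genes was 3.37 to 6.15 RPKM in oocytes, 1.47 to 2.22 RPKM at the 8-cell, 1.32 to 2.93 RPKM at the 16-cell stage, 0.0487 to 3.17 RPKM in morulae and 0.124 to 0.285 RPKM in blastocysts. In oocytes only 1 of the 8 averaged at least 1 RPKM. STAR reached 5.85 RPKM in an oocyte library and TNFAIP6 1.85 RPKM in 16-cell A. PTX3, INHBA, INHA, AMH and CYP11A1 stayed at or below 0.0542 RPKM above the offset in every library, and FSHR at or below 0.00399 RPKM. The sum of 6 fibroblast and endothelium genes was 3.45 to 4.69 RPKM in oocytes, 3.16 to 7.97 RPKM at the 2-cell stage and 0.0902 to 0.197 RPKM in blastocysts. LUM reached 5.23 RPKM in 2-cell B, the library in which SOX15 was highest of its stage, and DCN 4.06 RPKM in oocyte C. The other genes of this list stayed low. Their highest values above the offset were 0.272 RPKM for COL1A1 (in 2-cell B), 0.438 RPKM for COL1A2 (in 16-cell A), 0.123 RPKM for PECAM1 and 0.00821 RPKM for VWF. The 6 epithelial genes of oviduct and uterus summed to 0.635 to 0.847 RPKM at the 8-cell stage, 2.41 to 3.97 RPKM in morulae and 1.21 to 5.09 RPKM in blastocysts. EPCAM, which embryos express as well, reached 4.59 RPKM and TPPP3 1.95 RPKM. FOXJ1, WFDC2 and CDH1 stayed at or below 0.300 RPKM above the offset, and PAX8 at or below 0.00164 RPKM. The 5 sperm genes summed to at most 0.335 RPKM and the 6 blood genes to at most 0.682 RPKM in any library. The part of such cells in the levels of the 6 factors was not tested.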

How the data were processed

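The authors deposited a table of RPKM values with 1 column per library and 1 row per gene. Per the submitters' processing notes, the tools were FastQC, STAR 2.5.3a and Partek. How reads were counted, on which build and with or without strand, is not given in the sources used here. The deposited RPKM values held an offset of 0.01 and used each gene's span as its length: with both undone, between 95.3 and 96.8% of low values per library were whole reads, within 0.05 of a read. Reads, and RPM (reads scaled by library size alone), were computed from these steps, which gave totals of 24.0 M to 66.6 M reads. Counting error alone is covered by the floor of 3 reads.

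Of 19040 genes, 4253 reached 1 RPKM in 3 or more libraries. These were fitted two-sided, on log2(RPKM + 1), by limma 3.58.1 with its trend and robust options (R 4.3.3). The model held the 7 stages and no block. The tests cover 8 comparisons (6 of consecutive stages, oocyte to 8-cell and 8-cell to blastocyst) and a moderated F test over the 6. The code of the fit was run on simulated data with known changes. These were drawn with a normal spread around a flat mean per gene, so they do not test how the fit handles values near the floor. Fold changes on this scale understate those of low genes. Figures were drawn with matplotlib 3.10.9 and tables made with pandas 2.3.3 (Python 3.11.15).

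The members, the lists and the comparisons were chosen with earlier results of these data known. Genes named beside the members are, per list, up to 2 called rises and 2 called falls of largest size at 8-cell to 16-cell, 16-cell to morula and morula to blastocyst, and the 3 genes most like each tested member. A gene that this rule selects is not reported here. Further genes of a called count are named to account for it, and FGF4, TCF19 and the marker genes with values were chosen after their values were seen. Alternatives were pseudocounts of 0.1 and 5, no filter, a filter of 5 RPKM, quantile and median-ratio scaling, RPM in place of RPKM, array weights (statmod 1.5.0), a replicate block and leaving out libraries.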

Additional observations from a re-analysis of the deposited data

How the results depend on the processing

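The rises of SOX15, PRDM14 and SALL4 from 8-cell to 16-cell kept their direction under every alternative in which they were tested, and all 3 were called in each fit that leaves out 1 library. With a pseudocount of 5 the number of members called there was 0, since that scale brought all 3 below the size required (0.92, 0.72 and 0.56). It was 4 with a pseudocount of 0.1, where POU5F1 was called lower, and it was 5 (NANOG higher and POU5F1 lower besides) with RPM and with RPM plus 0.1 and no filter, a setting added after seeing the data. From morula to blastocyst 1 member, SOX15, was called. The number was 0 with a pseudocount of 5, 2 with a pseudocount of 0.1 and with RPM, 3 with RPM plus 0.1 and no filter, and 0 (without blastocyst B) to 2 (without morula A) when 1 library was left out. With median-ratio scaling it was 2, but these were POU5F1 and SALL4, both higher. The number stayed at 1 with quantile normalization and with array weights, but the member was POU5F1, higher by 1.24 (limma adjusted p = 0.000127), and PRDM14, at -1.12, in place of SOX15. The SOX15 difference there was -0.57 with a pseudocount of 5 and -0.74 with array weights. From 8-cell to blastocyst 1 was called, against 0 with a pseudocount of 5 or array weights (whose estimation stopped before its convergence tolerance), 2 with both RPM settings, 3 with a pseudocount of 0.1 and 4 with quantile or median-ratio scaling. From oocyte to 8-cell 0 were called, against 1 with a pseudocount of 0.1, 2 with RPM and 3 with RPM plus 0.1 and no filter. From 16-cell to morula 0 were called, against 1 with a pseudocount of 0.1, and from 4-cell to 8-cell 0, against 1 with RPM plus 0.1 and no filter. The filter of 5 RPKM left 2 members, both of which passed the F test. Apart from the fewer genes tested and the scales named, the causes were not tested. The share of all genes called under most of these settings is not given here. From 8-cell to blastocyst that share was already 56.9% in the main fit. The counts under these settings are therefore not read as results about the members.

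NANOG from 8-cell to blastocyst was -0.35 with RPM plus 0.1 and no filter, against 0.083 in the fit of all genes. Other differences changed sign as follows, with quantile then median-ratio scaling: SALL4 -0.23 and -0.22 from oocyte to 2-cell, -0.055 and -0.084 from 16-cell to morula, 0.86 and 1.20 from morula to blastocyst, and -0.15 and -0.16 from oocyte to 8-cell, and SOX15 -0.12 and -0.030 from oocyte to 8-cell. When 1 library was left out, POU5F1 ran from -0.28 to 0.036 and SOX15 from -0.43 to 0.19 at 2-cell to 4-cell, SOX15 from -0.67 to 0.13 and SALL4 from -0.039 to 0.18 at 16-cell to morula, and SALL4 from -0.14 to 0.085 at morula to blastocyst. Of 568 alternative values of a member's difference, 493 were classed as unchanged. For the members tested in the main model, that means the same direction and the same side of the call rule. For NANOG and SOX2 it means only a value within the pooled SD of the compared libraries from the value on log2(RPKM + 1).

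Library letters do not say that samples belong together. Deviations of libraries with the same letter had a median correlation of -0.02 over 63 pairs, 18 of them over 0.1, so the letters were not taken as pairs. With the replicate block 3 members were called from 8-cell to 16-cell, 1 from morula to blastocyst and 1 from 8-cell to blastocyst, as without it. NANOG before the 8-cell stage and SOX2 before the 16-cell stage had at most 17 reads per library, which limits the precision of their differences there.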
